A study of Mus musculus with 12 samples.

Results

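The 8 genes described here encode the m6A readers: Ythdf1, Ythdf2, Ythdf3, Ythdc1, Ythdc2, Igf2bp1, Igf2bp2, and Igf2bp3. They were listed by name as the YTH-domain and IGF2BP proteins, with earlier results of these data known, and all 8 were among the 12591 genes of the table. N6-methyladenosine (m6A) is a methyl mark on adenosines of mRNA, placed in the nucleus by a methyltransferase complex that takes its methyl group from S-adenosylmethionine (SAM). Reader proteins bind marked RNA and act on it. The YTH domain holds the methylated base directly in a pocket, and the YTHDF proteins bring bound mRNA to the decay and translation machinery of the cytoplasm. YTHDC1 works in the nucleus in splicing and export, YTHDC2 carries an RNA helicase and is best known from germ cells, and the IGF2BP proteins bind RNA through KH domains and are known for keeping their mRNA targets stable.

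The RNA came from immortalized PER2::LUC fibroblasts of mouse embryos (C57 background, heterozygous for the knock-in that fuses luciferase to the clock protein PER2), in 4 groups of 3 replicate dishes. Cells of 1 group received 10 µM Deazaneplanocin A (DZ), an inhibitor of AHCY, the enzyme that clears the methylation byproduct S-adenosylhomocysteine. The others received 1 mM adenine, 1 mM SAM, or no such agent (CTL), and every group, CTL included, held 3.3 mM HCl during the 24 h of treatment. The study asked what excess SAM does to methylation, with adenine, an inhibitor of AHCY and a product of SAM breakdown, and DZ as comparisons. All values come from 1 immortalized line and from dishes, so p-values measure the spread between dishes, and in bulk RNA fewer cells with an mRNA and less of it per cell cannot be told apart. Reader proteins, their binding, and m6A itself were not part of the table. The paper quantified methylated nucleotides of mRNA, m6A among them, separately by mass spectrometry. It reported that they decreased widely under adenine, SAM, and DZ.

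Polyadenylated RNA was sequenced, and each value is log2 CPM, where CPM sets the reads of each gene against the normalized size of its library. Each library held between 45649534 and 56789090 reads on listed genes, with reads on the readers from 827 for Ythdc2 in 1 library to 8184 for Ythdf3 in another. Between replicates of 1 group the chi-square over genes, divided by its degrees of freedom, was 4.76 to 19.1, more than counting noise gives. Of 10 fibroblast markers 8 were listed (Dcn and Lum were not), with summed levels of 21840 to 22280 CPM in CTL, 27670 to 28260 in DZ, 24220 to 26540 in adenine, and 15860 to 17240 in SAM. The sum and the single markers went different ways under SAM, where 7 of the 8 were called higher and 1 lower (limma, FDR under 0.01, which 69.3% of all genes passed), with a median log2 fold change of 0.41. The lower one was Fn1 (fibronectin), the most abundant of them in CTL, at -1.58. Under adenine 5 were higher and 1 lower, again Fn1 (-0.43), and under DZ 7 were higher and 1 lower, Vim (-0.39), beside 61.6% and 45.9% of all genes called. Of 6 leukocyte markers only Cd68 was listed, at 3.03 to 4.0 CPM in CTL, 2.74 to 3.79 in DZ, 10.8 to 12.4 in adenine, and 15.6 to 17.7 in SAM. None of 5 epithelial and none of 5 endothelial markers was listed. Listing required at least 1 CPM in every sample, so a marker present in only some groups would be missing. The fibroblast markers and Cd68 moved with the treatments, the sum and most of its genes in opposite directions under SAM, and their part in the results for the readers was not tested.

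Levels of different genes can be compared only per length. Divided by the union of annotated exons, Ythdf1 stood highest in CTL at 17.3 ± 0.187 CPM per kilobase (SD, n = 3). Ythdf3 (13.3 ± 0.412) and Igf2bp2 (13.2 ± 0.0996) followed, with overlapping dishes. Ythdf2 (8.85 ± 0.441) lay above Ythdc1 (6.26 ± 0.243) and Igf2bp3 (5.94 ± 0.134), whose dishes overlapped as well. Igf2bp1 (4.41 ± 0.293) and Ythdc2 (2.77 ± 0.11) were the lowest, and they kept the seventh and eighth places with each of the 3 lengths. The top of the order turned on the length used. Lengths came from GENCODE vM39, whereas the authors' alignment was guided by vM27, so the exons measured may differ from those counted. Divided by the canonical transcript, a length added after seeing the data, Ythdf3 came first at 29.8 ± 0.925, then Igf2bp2 at 24.5 ± 0.184, Ythdc1 at 23.1 ± 0.894, and Ythdf1 at 18.0 ± 0.195 CPM per kilobase. The low place of Ythdc2, the helicase reader, was thus the same with every length, while Ythdf1 took place 1 with the union of exons, 3 with the longest transcript, and 4 with the canonical transcript.

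**Figure D1:**
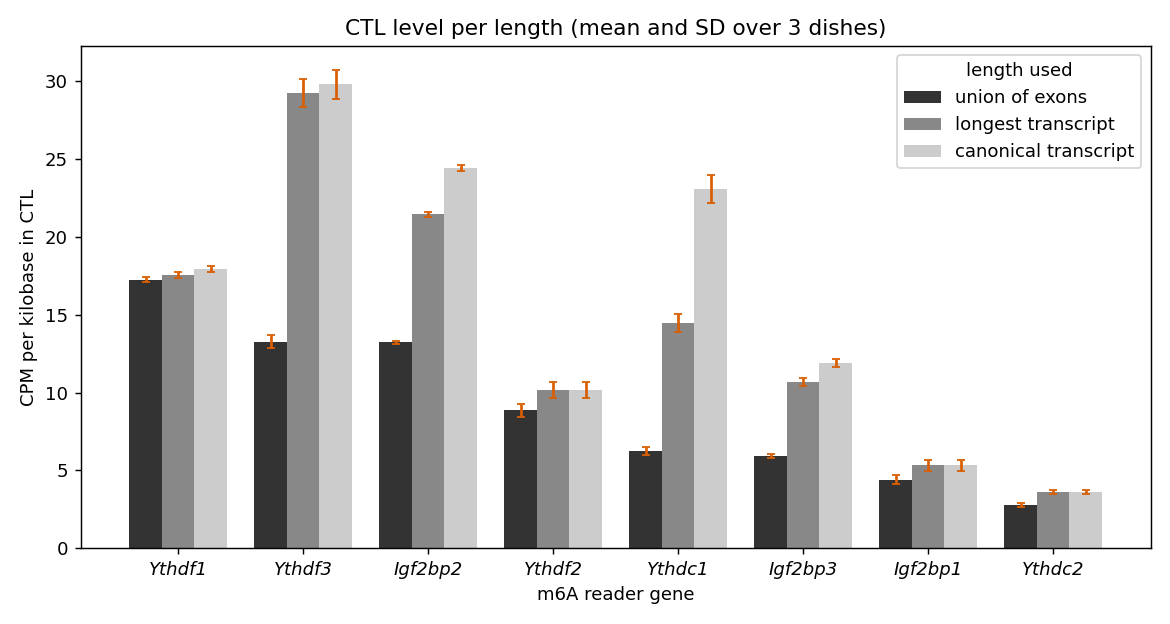
Level of each m6A reader in CTL, as CPM per kilobase (vertical axis, from 0) for each gene (horizontal axis). Bars are means and error bars SD over 3 dishes, with 3 shades for the length used. Ythdc2 and Igf2bp1 are lowest with each length, whereas Ythdf3 goes from 13.3 with the union of exons to 29.8 with the canonical transcript.

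The readers moved by small amounts. Under DZ 1 of the 8 passed the threshold (limma, FDR under 0.01), lower than in CTL, where 45.9% of all genes passed, 22.6% higher and 23.4% lower. Under adenine 4 passed, 1 higher and 3 lower, beside 61.6% of all genes (30.6% higher and 31.0% lower). Under SAM 6 passed, 2 higher and 4 lower, beside 69.3% of all genes (33.7% higher and 35.7% lower). The balance under SAM turned with the scaling, from 2 higher and 4 lower to 4 higher and 1 lower with plain read totals, and to 0 higher and 4 lower with median centring or quantile normalization. Under adenine it was 1 higher and 2 lower with plain read totals, 0 and 5 with median centring, and 0 and 4 with quantile normalization. Under DZ the single call was lower with each of these. With the deposited scaling the shares of the members were 12.5%, 50%, and 75% for a list of only 8 genes, given as a description. Over the readers the median size of the log2 fold change was 0.081 under DZ, 0.13 under adenine, and 0.18 under SAM, against 0.18, 0.27, and 0.34 for all genes. In the other count, of members whose 3 treated dishes all lay outside the range of the CTL dishes, DZ gave 4 of 8 (65.4% of all genes), adenine 5 (74.7%), and SAM 6 (77.6%).

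**Figure D2:**
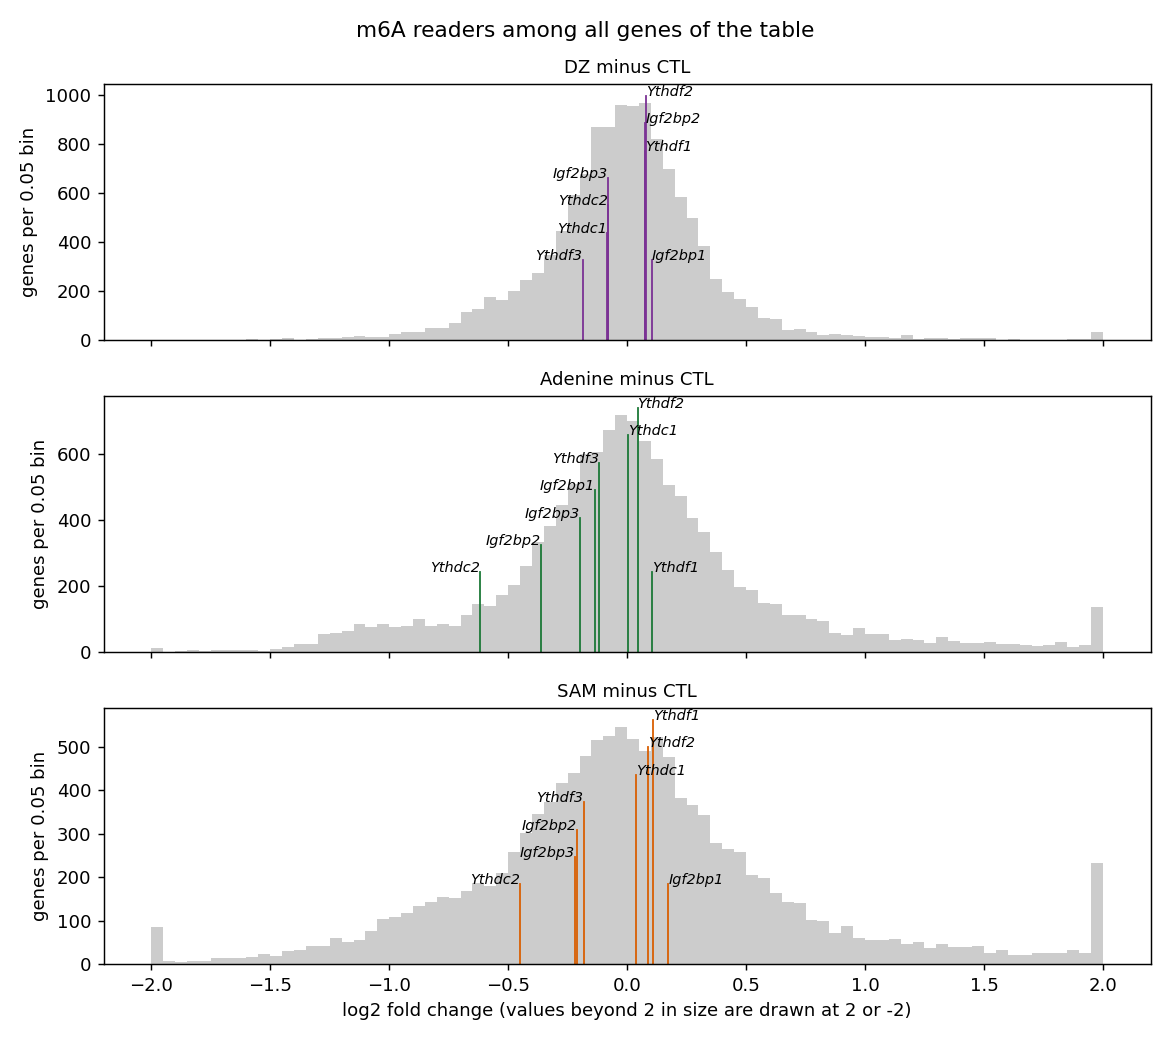
Log2 fold changes against CTL of all 12591 genes (grey, genes per bin of 0.05) with the 8 m6A readers as labelled lines, 1 panel per treatment. Line heights only separate the labels. The readers lie near 0 under DZ, between -0.19 and 0.10, and Ythdc2 lies farthest out under adenine (-0.62) and SAM (-0.45).

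Scaling bears on changes this small. Scaled by plain read totals instead of the authors' normalized library sizes, the middle log2 difference over the 12591 genes went from -0.015 to 0.11 under SAM, and from -0.0030 to 0.059 under adenine. Of the genes called under SAM, 48.5% were higher with the deposited scaling and 61.2% with plain totals, and between SAM and adenine these shares were 48.6% and 63.2%. The calls of single readers against CTL that turned on the scaling are given with each reader.

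Of the cytoplasmic YTHDF readers, Ythdf3 fell and Ythdf1 rose by small amounts, and Ythdf2 passed no test. Ythdf3 (gene ENSMUSG00000047213, GRCm39 chromosome 3, 16237297 to 16271201, plus strand), whose protein is described as working with YTHDF1 in translation and YTHDF2 in decay, was the only reader called under DZ. Its CTL dishes held 7.22, 7.31, and 7.27 (mean 7.27 ± 0.045, SD, n = 3) log2 CPM, and its DZ dishes 7.14, 7.03, and 7.07 (mean 7.08 ± 0.058, SD, n = 3). The adenine dishes held 7.12, 7.2, and 7.13 (mean 7.15 ± 0.045, SD, n = 3) and the SAM dishes 7.07, 7.15, and 7.04 (mean 7.09 ± 0.055, SD, n = 3). Every treated dish lay below every CTL dish. Ythdf3 fell by 12.2% under DZ (log2 fold change -0.19, 95% confidence interval -0.27 to -0.10, limma adjusted p = 7.44e-04) and by 11.9% under SAM (log2 fold change -0.18, 95% confidence interval -0.27 to -0.10, limma adjusted p = 4.86e-04). Under adenine the difference missed the threshold (log2 fold change -0.12, 95% confidence interval -0.20 to -0.035, limma adjusted p = 0.0133), although it passed without adenine replicate 2 (log2 fold change -0.14, limma adjusted p = 0.00847) and with median centring (-0.17, limma adjusted p = 0.00139). With plain read totals the change under SAM came to -0.061 and was not called (limma adjusted p = 0.15). Gm64384, a noncoding gene on the opposite strand that is not listed, shares 377 bases with the canonical Ythdf3 transcript.

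Ythdf1 (ENSMUSG00000038848, GRCm39 chromosome 2, 180546165 to 180562815, minus strand), best known for promoting translation of marked mRNA, moved the other way. It held 5.87, 5.89, and 5.86 (mean 5.87 ± 0.016, SD, n = 3) log2 CPM in CTL and 5.92, 5.99, and 5.94 (mean 5.95 ± 0.034, SD, n = 3) in DZ. It held 5.94, 6.0, and 5.99 (mean 5.98 ± 0.035, SD, n = 3) in adenine and 5.98, 5.98, and 5.99 (mean 5.98 ± 0.0079, SD, n = 3) in SAM. All 9 treated dishes lay above the 3 CTL dishes. The rise was 7.56% under adenine (log2 fold change 0.11, 95% confidence interval 0.036 to 0.17, limma adjusted p = 0.00897) and 7.88% under SAM (log2 fold change 0.11, 95% confidence interval 0.04 to 0.18, limma adjusted p = 0.00624), while under DZ it did not pass (log2 fold change 0.076, 95% confidence interval 0.0073 to 0.15, limma adjusted p = 0.0549). Both calls were close to the threshold. That under SAM was lost whichever of the 6 libraries was left out, with log2 fold changes from 0.10 to 0.12. That under adenine was lost without any CTL replicate and without adenine replicate 2 or 3, with 0.093 to 0.11, and median centring lowered it to 0.054 (limma adjusted p = 0.152) and the one under SAM to 0.070 (limma adjusted p = 0.0616). Quantile normalization gave 0.088 under adenine (limma adjusted p = 0.0233) and 0.097 under SAM (limma adjusted p = 0.0125), neither of them called.

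Ythdf2 (ENSMUSG00000040025, GRCm39 chromosome 4, 131911065 to 131939614, minus strand), the reader that brings marked mRNA to the CCR4-NOT deadenylase, passed in none of the comparisons. Its dishes held 5.66, 5.81, and 5.77 (mean 5.75 ± 0.073, SD, n = 3) log2 CPM in CTL and 5.81, 5.83, and 5.84 (mean 5.83 ± 0.02, SD, n = 3) in DZ. In adenine they held 5.8, 5.74, and 5.82 (mean 5.79 ± 0.04, SD, n = 3), and in SAM 5.87, 5.81, and 5.81 (mean 5.83 ± 0.035, SD, n = 3). CTL replicate 1 was the lowest of the 12 dishes. The 95% confidence intervals of the log2 difference from CTL were -0.0054 to 0.17 under DZ, -0.042 to 0.13 under adenine, and 0.0023 to 0.17 under SAM. With median centring the difference under adenine was -0.0075. With plain read totals Ythdf2 was called higher under SAM (0.21, limma adjusted p = 1.78e-04). Transcripts of Gm6823 and Gm8401, which are not listed, match that of Ythdf2 at 95.2% and 96.3% identity over 1840 and 1740 bases, so reads of Ythdf2 could have been shared with them.

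**Figure D3:**
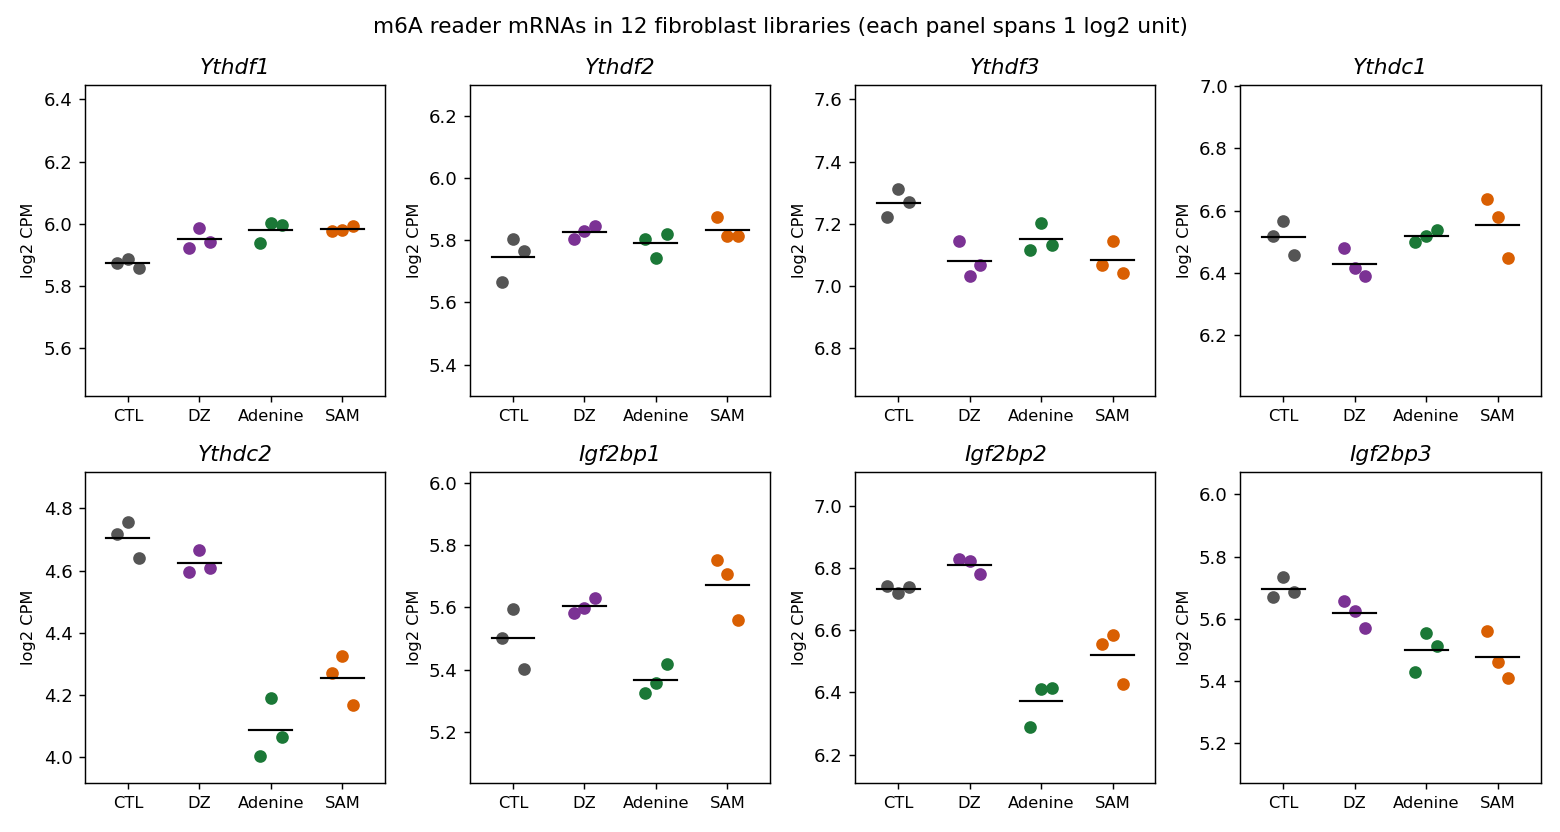
Log2 CPM (vertical axes, each spanning 1 unit) of the 8 m6A readers in the 3 dishes of each group, with a line at the group mean. The adenine and SAM dishes of Ythdc2 and Igf2bp2 lie below all CTL and DZ dishes, and the treated dishes of Ythdf3 below all CTL dishes.

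Of the YTHDC pair, Ythdc2 showed the largest change of any reader and Ythdc1 none that passed. Ythdc2 (ENSMUSG00000034653, GRCm39 chromosome 18, 44960813 to 45022791, plus strand) held 4.72, 4.75, and 4.64 (mean 4.7 ± 0.058, SD, n = 3) log2 CPM in CTL and 4.6, 4.67, and 4.61 (mean 4.62 ± 0.038, SD, n = 3) in DZ. It held 4.01, 4.19, and 4.07 (mean 4.09 ± 0.094, SD, n = 3) in adenine and 4.27, 4.32, and 4.17 (mean 4.25 ± 0.08, SD, n = 3) in SAM. The adenine and SAM dishes all lay below the CTL and DZ dishes, which overlapped each other. The mRNA fell by 34.8% under adenine (log2 fold change -0.62, 95% confidence interval -0.75 to -0.49, limma adjusted p = 1.94e-07) and by 26.8% under SAM (log2 fold change -0.45, 95% confidence interval -0.58 to -0.32, limma adjusted p = 5.22e-06). Under DZ the difference did not pass (log2 fold change -0.081, 95% confidence interval -0.21 to 0.048, limma adjusted p = 0.263). Both falls were called with every library left out in turn and with each of the scalings tried. Even so, 21.2% of all genes had a larger absolute log2 fold change than Ythdc2 under adenine, and 39.7% under SAM. Gm58493, a noncoding gene on the opposite strand that is not listed, shares 273 bases with the canonical Ythdc2 transcript.

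The 3 genes of the table whose pattern lay nearest to that of Ythdc2 over the 12 libraries, by the root mean square difference of centred log2 values, were Togaram1 (0.0583, Pearson r = 0.98), Csnk1e (0.0688, r = 0.97), and Slc22a21 (0.0719, r = 0.96). The points share their libraries and groups, so the r values describe the pattern and carry no test. Their log2 fold changes under adenine were -0.51, -0.49, and -0.66, and under SAM -0.40, -0.35, and -0.45.

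Ythdc1 (ENSMUSG00000035851, GRCm39 chromosome 5, 86951957 to 86985080, plus strand), the nuclear reader, held 6.52, 6.57, and 6.46 (mean 6.51 ± 0.056, SD, n = 3) log2 CPM in CTL and 6.48, 6.42, and 6.39 (mean 6.43 ± 0.045, SD, n = 3) in DZ. In adenine it held 6.5, 6.52, and 6.54 (mean 6.52 ± 0.019, SD, n = 3), and in SAM 6.64, 6.58, and 6.45 (mean 6.55 ± 0.097, SD, n = 3). Every treatment overlapped CTL, and SAM was the widest group, with SAM replicate 3 the lowest of its dishes. That replicate was also the lowest SAM dish of Ythdf3, Ythdc2, Igf2bp1, Igf2bp2, and Igf2bp3, though not of Ythdf1 or Ythdf2. The intervals of its log2 difference from CTL were -0.18 to 0.0098 under DZ, -0.092 to 0.10 under adenine, and -0.057 to 0.13 under SAM. Under SAM it was called higher with plain read totals (0.16, limma adjusted p = 0.00363), and with median centring the difference was -1.7e-04. Under adenine median centring gave -0.048, of opposite sign to the 0.0038 of the deposited scaling, and neither was called. Gm43055, a noncoding gene on the same strand that is not listed, shares 635 bases with the canonical Ythdc1 transcript.

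In the IGF2BP family, Igf2bp2 and Igf2bp3 fell under adenine and SAM, and Igf2bp1 rose under SAM. The family is named after Igf2 mRNA, which its members bind, and is more abundant in embryonic cells than in most adult tissues. Igf2bp2 (ENSMUSG00000033581, GRCm39 chromosome 16, 21877759 to 21982499, minus strand), the member that stays most widely expressed in adult tissues, held 6.74, 6.72, and 6.74 (mean 6.73 ± 0.011, SD, n = 3) log2 CPM in CTL and 6.83, 6.82, and 6.78 (mean 6.81 ± 0.026, SD, n = 3) in DZ. It held 6.29, 6.41, and 6.41 (mean 6.37 ± 0.072, SD, n = 3) in adenine and 6.55, 6.58, and 6.43 (mean 6.52 ± 0.083, SD, n = 3) in SAM. The 4 groups separated by dish, DZ highest, then CTL, SAM, and adenine. Igf2bp2 fell by 22.2% under adenine (log2 fold change -0.36, 95% confidence interval -0.45 to -0.27, limma adjusted p = 1.57e-06) and by 13.6% under SAM (log2 fold change -0.21, 95% confidence interval -0.30 to -0.12, limma adjusted p = 3.04e-04), and the difference under DZ missed the threshold (log2 fold change 0.077, 95% confidence interval -0.014 to 0.17, limma adjusted p = 0.134). With plain read totals the change under SAM was -0.090 and was not called (limma adjusted p = 0.0585), whereas that under adenine was called with each scaling.

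Igf2bp3 (ENSMUSG00000029814, GRCm39 chromosome 6, 49062144 to 49192447, minus strand), an oncofetal member of the family, held 5.67, 5.73, and 5.69 (mean 5.7 ± 0.032, SD, n = 3) log2 CPM in CTL and 5.66, 5.62, and 5.57 (mean 5.62 ± 0.044, SD, n = 3) in DZ. It held 5.43, 5.55, and 5.51 (mean 5.5 ± 0.064, SD, n = 3) in adenine and 5.56, 5.46, and 5.41 (mean 5.48 ± 0.077, SD, n = 3) in SAM. All 9 treated dishes lay below the CTL dishes. The fall was 12.9% under adenine (log2 fold change -0.20, 95% confidence interval -0.30 to -0.10, limma adjusted p = 0.00126) and 14% under SAM (log2 fold change -0.22, 95% confidence interval -0.32 to -0.12, limma adjusted p = 4.96e-04), and the difference under DZ did not pass (log2 fold change -0.08, 95% confidence interval -0.18 to 0.019, limma adjusted p = 0.153). With plain read totals neither fall was called, at -0.14 (limma adjusted p = 0.0133) under adenine and -0.096 (limma adjusted p = 0.063) under SAM. The 1542 bases that Igf2bp3 shares with Malsu1, a listed gene on the opposite strand, are identical. The libraries were prepared to keep the strand, but whether the counting used it is not given in the sources used here. Malsu1 itself had log2 fold changes of 0.14 under DZ, -0.14 under adenine, and 0.29 under SAM, the last of which passed (limma adjusted p = 0.00182).

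Igf2bp1 (ENSMUSG00000013415, GRCm39 chromosome 11, 95847989 to 95896911, minus strand), known for binding Myc and Actb mRNA, held 5.5, 5.6, and 5.4 (mean 5.5 ± 0.096, SD, n = 3) log2 CPM in CTL and 5.58, 5.6, and 5.63 (mean 5.6 ± 0.025, SD, n = 3) in DZ. It held 5.33, 5.36, and 5.42 (mean 5.37 ± 0.046, SD, n = 3) in adenine and 5.75, 5.71, and 5.56 (mean 5.67 ± 0.1, SD, n = 3) in SAM. CTL replicate 2 lay above SAM replicate 3, so that these groups overlapped. Igf2bp1 rose by 12.7% under SAM (log2 fold change 0.17, 95% confidence interval 0.056 to 0.29, limma adjusted p = 0.00955). The call was lost without CTL replicate 1 or 3 or SAM replicate 1 or 2 (log2 fold changes from 0.12 to 0.17), with median centring (0.13, limma adjusted p = 0.0395), and with quantile normalization (0.15, limma adjusted p = 0.0205). Under adenine the difference was of opposite sign and missed the threshold (log2 fold change -0.13, 95% confidence interval -0.25 to -0.018, limma adjusted p = 0.0391), which median centring (-0.19, limma adjusted p = 0.00755) and quantile normalization (-0.17, limma adjusted p = 0.00919) moved to a call, and under DZ it did not pass (log2 fold change 0.10, 95% confidence interval -0.014 to 0.22, limma adjusted p = 0.119).

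**Figure D4:**
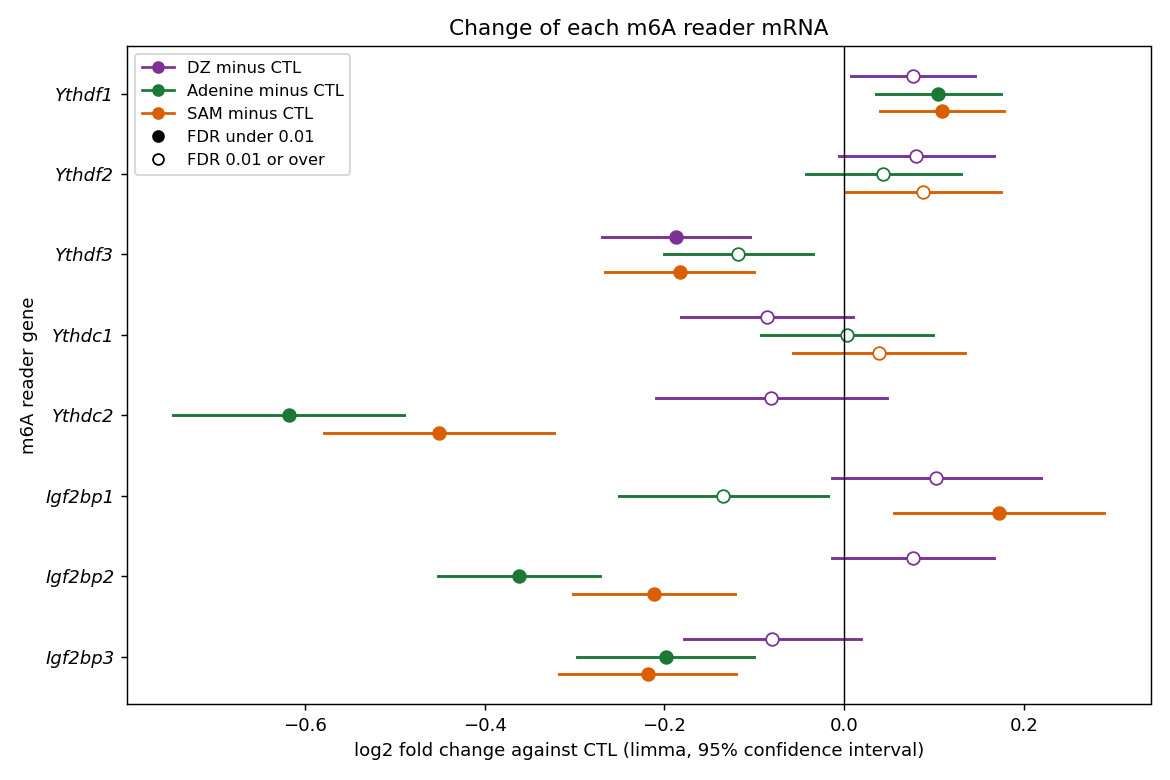
Log2 fold change against CTL (horizontal axis) of each m6A reader under DZ, adenine, and SAM, with 95% confidence intervals from limma over 3 dishes per group. Filled points passed an FDR of 0.01 with the deposited scaling. Ythdc2, Igf2bp2, and Igf2bp3 are called lower under adenine and SAM but not DZ, and Ythdf3 is called lower under DZ and SAM. These calls are against CTL, and neither Igf2bp3 nor Ythdf3 was called in a direct contrast of treatments with the deposited scaling.

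Ythdf1, which was higher than CTL under both adenine and SAM, and Igf2bp2 and Igf2bp3, which were lower under both, have entries in the RefSeq promoter table (250 bases before to 50 after the start site, GRCm38.p6). Their promoter windows are shown as those of readers that moved the same way under both treatments. Ythdc2 was also called lower under both, and no window of it is shown. Capitals mark matches, on either strand, to 7 motifs searched: CACGTG (the E-box read by clock proteins and MYC), TGACGTCA (the cAMP response element), CCAAT (the CCAAT box), GGGCGG (the GC box), TTTNGCGC (a form of the E2F site), TGATGNAA (a form of the ATF4 site), and TATAAA (the TATA box). The windows lie at chr2:180920887-180921186 (minus strand) for Ythdf1, chr16:22163250-22163549 (minus strand) for Igf2bp2, and chr6:49214905-49215204 (minus strand) for Igf2bp3.
Ythdf1: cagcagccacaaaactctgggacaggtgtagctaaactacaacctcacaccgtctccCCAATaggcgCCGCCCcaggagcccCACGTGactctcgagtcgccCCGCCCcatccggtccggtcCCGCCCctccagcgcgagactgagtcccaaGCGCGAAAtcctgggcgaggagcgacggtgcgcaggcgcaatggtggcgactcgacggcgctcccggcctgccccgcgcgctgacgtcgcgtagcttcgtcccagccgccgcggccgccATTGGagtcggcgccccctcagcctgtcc
Igf2bp2: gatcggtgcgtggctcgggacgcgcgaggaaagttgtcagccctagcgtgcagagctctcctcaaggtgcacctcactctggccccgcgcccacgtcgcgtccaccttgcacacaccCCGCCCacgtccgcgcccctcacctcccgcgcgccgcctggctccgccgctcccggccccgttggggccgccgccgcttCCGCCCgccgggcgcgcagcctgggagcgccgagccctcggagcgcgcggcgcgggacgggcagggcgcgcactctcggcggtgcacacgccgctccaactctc
Igf2bp3: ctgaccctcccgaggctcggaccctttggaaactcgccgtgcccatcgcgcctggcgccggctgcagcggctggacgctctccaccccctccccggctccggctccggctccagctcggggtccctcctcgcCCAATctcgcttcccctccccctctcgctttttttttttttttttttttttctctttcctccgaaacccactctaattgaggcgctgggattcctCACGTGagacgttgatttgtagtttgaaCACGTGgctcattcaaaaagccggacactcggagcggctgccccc
The Igf2bp3 window holds CACGTG 2 times, starting 23 bases before and 5 bases after the start site, and that of Ythdf1 holds it 1 time, 168 bases before. CACGTG is in 7.15% of all 32851 windows. GGGCGG is in the windows of Ythdf1 (3 matches) and Igf2bp2 (2 matches) and in 35.7% of all, and CCAAT in those of Ythdf1 and Igf2bp3 and in 37.4% of all. Ythdf1 also holds a match to TTTNGCGC, found in 1.38% of windows. Among the 5 readers with a window, TTTNGCGC was also in that of Ythdc1. GGGCGG was in 4 of the 5, those of Ythdc1 and Ythdf2 included. Neither Ythdc1 nor Ythdf2 was called against CTL with the deposited scaling. None of the 3 windows shown holds TGACGTCA (1.79% of all), TGATGNAA (3.97%), or TATAAA (13.6%). No 2 of the matches in these 3 windows overlap, and their GC content was 70.0% for Ythdf1, 76.7% for Igf2bp2, and 60.3% for Igf2bp3, against a median of 52.7%. A match describes letters in the window and not a binding site.

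Between the treatments, SAM and adenine were compared at the same dose of 1 mM, and 2 of 8 readers differed, where 42.7% of all genes did. Igf2bp1 was higher in SAM (log2 fold change 0.31, 95% confidence interval 0.19 to 0.42, limma adjusted p = 2.35e-04), as was Igf2bp2 (log2 fold change 0.15, 95% confidence interval 0.06 to 0.24, limma adjusted p = 0.00731). The call for Igf2bp2 was lost without adenine replicate 1 or SAM replicate 1 or 2, with 0.11 to 0.13. Ythdc2 lay higher in SAM than in adenine by 0.17, which missed the threshold (limma adjusted p = 0.028) but passed without adenine replicate 2 (0.22, limma adjusted p = 0.00997) and with plain read totals (0.23, limma adjusted p = 0.00414). The intervals of the SAM minus adenine difference for the readers that did not pass were -0.065 to 0.073 for Ythdf1, -0.042 to 0.13 for Ythdf2, and -0.15 to 0.017 for Ythdf3. They were -0.061 to 0.13 for Ythdc1, 0.039 to 0.30 for Ythdc2, and -0.12 to 0.079 for Igf2bp3.

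DZ was given at 10 µM, so its contrasts with adenine and SAM set unequal doses side by side. Between DZ and adenine 3 of 8 readers passed (64.3% of all genes), all higher in DZ: Ythdc2 (log2 fold change 0.54, limma adjusted p = 9.44e-07), Igf2bp2 (log2 fold change 0.44, limma adjusted p = 1.77e-07), and Igf2bp1 (log2 fold change 0.24, limma adjusted p = 0.00112). Igf2bp3 (log2 fold change 0.12, limma adjusted p = 0.0302) and Ythdf3 (log2 fold change -0.069, limma adjusted p = 0.117) were among those that did not pass. Between DZ and SAM 2 passed (69.0% of all genes), again higher in DZ: Ythdc2 (log2 fold change 0.37, limma adjusted p = 4.21e-05) and Igf2bp2 (log2 fold change 0.29, limma adjusted p = 1.48e-05). Igf2bp3 (log2 fold change 0.14, limma adjusted p = 0.0129) and Ythdc1 (log2 fold change -0.12, limma adjusted p = 0.0196) missed the threshold there. The Igf2bp3 call appeared without SAM replicate 1 (0.18, limma adjusted p = 0.0031) and the Ythdc1 call without SAM replicate 3 (-0.18, limma adjusted p = 5.06e-04). With plain read totals Ythdc1 (-0.22, limma adjusted p = 2.87e-04) and Ythdf1 (-0.13, limma adjusted p = 0.0018) were called lower in DZ than in SAM, and with quantile normalization Ythdc1 alone (-0.16, limma adjusted p = 0.00189). With median centring Igf2bp3 was called higher in DZ than in SAM (0.16, limma adjusted p = 0.00491) and than in adenine (0.16, limma adjusted p = 0.00715).

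The balance within each family was also read as the log2 ratio of reads of 2 members in the same library, which no scaling can change. Over 7 pairs and 3 treatments, 21 comparisons with CTL were made by a two-sided exact permutation test of 3 dishes against 3. The smallest p of this test is 0.1 (0.15 after adjustment), so none could pass. Dishes did not overlap CTL in 4 of the 7 pairs under DZ, 5 under adenine, and 5 under SAM. Of single genes 65.4%, 74.7%, and 77.6% did not overlap, and the share over other pairs of genes was not counted. Ythdf1 against Ythdf3 was higher in every treated dish than in every CTL dish, going from -1.40 ± 0.041 in CTL (SD, n = 3) to -1.13 ± 0.090 in DZ, -1.17 ± 0.031 in adenine, and -1.10 ± 0.058 in SAM. Ythdf2 against Ythdf3 went likewise from -1.52 ± 0.030 to -1.26 ± 0.074, -1.36 ± 0.084, and -1.25 ± 0.073, with no overlap with CTL. Ythdf1 against Ythdf2 overlapped CTL under each treatment. Ythdc1 against Ythdc2 went from 1.81 ± 0.0079 in CTL to 2.43 ± 0.091 in adenine and 2.30 ± 0.059 in SAM, whereas DZ (1.81 ± 0.070) overlapped CTL.

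Among the IGF2BP genes, Igf2bp1 against Igf2bp2 went from -1.23 ± 0.11 in CTL (SD, n = 3) to -1.01 ± 0.047 in adenine and -0.85 ± 0.040 in SAM, without overlap, and DZ (-1.21 ± 0.051) overlapped CTL. Igf2bp1 against Igf2bp3 was -0.20 ± 0.076 in CTL, -0.014 ± 0.069 in DZ, -0.13 ± 0.057 in adenine, and 0.19 ± 0.050 in SAM. It was above 0 in all SAM dishes and below 0 in all CTL and adenine dishes. These reads are not divided by length, so the sign does not rank the 2 genes. Per kilobase, the SAM mean of Igf2bp1 stayed below that of Igf2bp3 with each length. It was 4.97 against 5.11 CPM with the union of exons, with overlapping dishes, and 6.0 against 10.2 with the canonical transcript. Igf2bp2 against Igf2bp3 was higher than CTL in DZ (1.19 ± 0.020 against 1.04 ± 0.043), lower in adenine (0.87 ± 0.024), and overlapped it in SAM (1.04 ± 0.069).

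**Figure D5:**
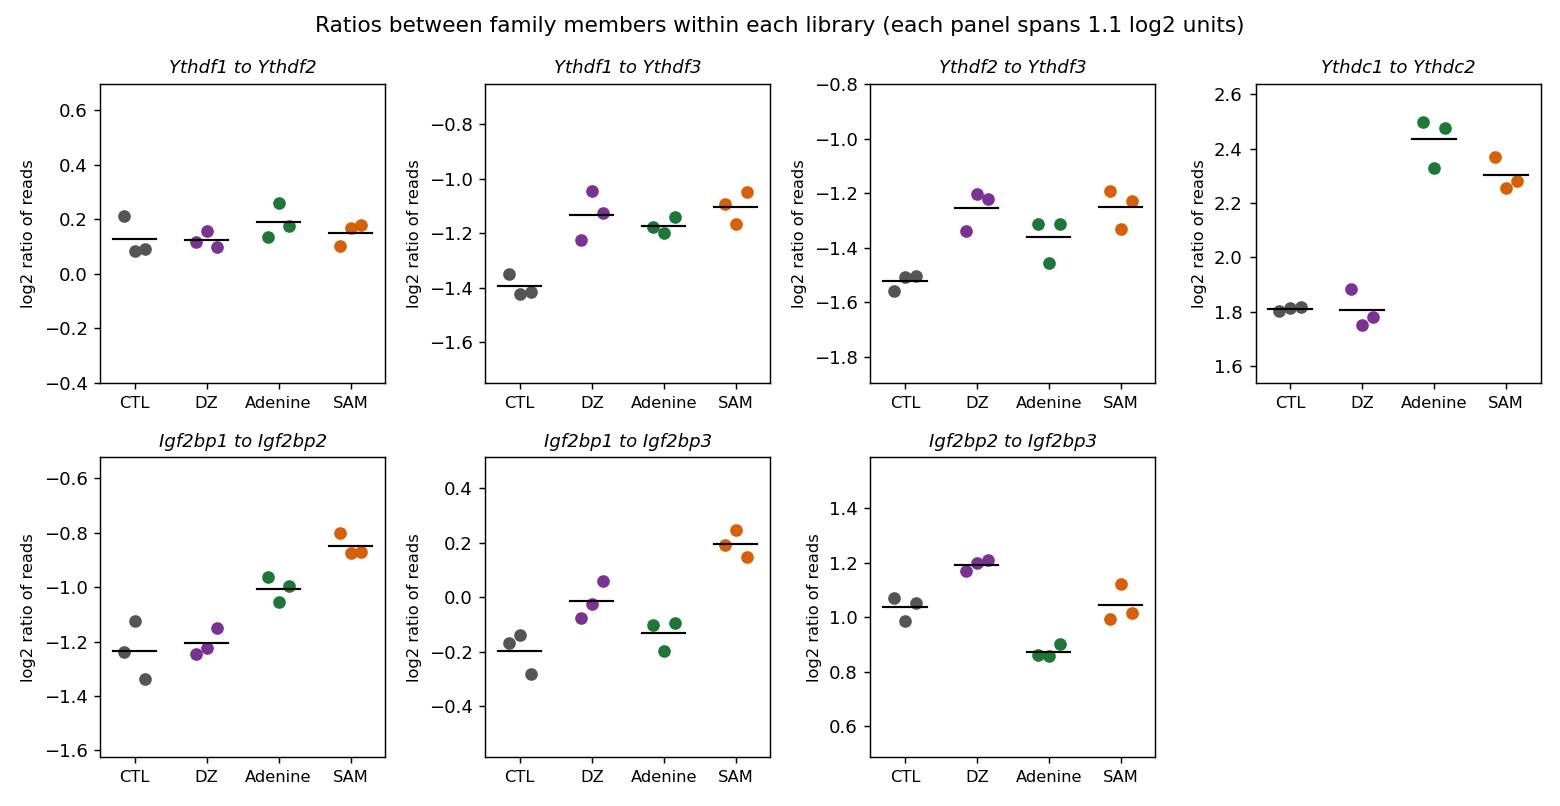
Log2 ratio of the reads of 2 members of a family in the same library (vertical axes, each spanning 1.1 units) for 7 pairs, with 3 dishes per group and a line at the group mean. Ythdc1 to Ythdc2 stands above CTL in adenine and SAM but not in DZ, and both ratios to Ythdf3 stand above CTL under all 3 treatments.

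The proteins that work with the readers or on the mark were taken from lists of known genes, and their values are those of the deposited scaling. Of 13 decay partners of the YTH proteins that were listed, 4 passed under DZ (1 higher, 3 lower), 5 under adenine (4 higher, 1 lower), and 7 under SAM (6 higher, 1 lower), with median log2 fold changes of -0.0054, 0.088, and 0.042. These calls were 30.8%, 38.5%, and 53.8% of the list, beside 45.9%, 61.6%, and 69.3% of all genes. Rida, an adaptor described as linking YTHDF2 to RNase P and MRP, was lower under DZ (-0.44, limma adjusted p = 3.16e-06) and higher under adenine (0.46) and SAM (0.43). Upf1, the helicase of nonsense-mediated decay, rose under all 3 (0.34, 0.18, and 0.27 in the order DZ, adenine, SAM). Cnot9, a CCR4-NOT subunit, had 0.15 under DZ, which did not pass (limma adjusted p = 0.0155), and rose by 0.37 under adenine and 0.35 under SAM.

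Of 5 nuclear partners of YTHDC1, 4 were lower under DZ, 2 higher and 1 lower under adenine, and 3 higher and 1 lower under SAM, with medians of -0.25, 0.028, and 0.11. The shares called were 80%, 60%, and 80% of these 5, against 45.9%, 61.6%, and 69.3% of all genes. The splicing factor Srsf3 was lower under DZ (-0.42, limma adjusted p = 5.25e-09) and higher under adenine (0.11) and SAM (0.11). Srsf10, another splicing factor, fell under all 3 (-0.15, -0.27, and -0.47). The mRNA export receptor Nxf1 had -0.038 under DZ, which did not pass (limma adjusted p = 0.336), and rose by 0.37 under adenine and 0.28 under SAM.

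Of the 3 RNA-binding partners of the IGF2BP proteins, 1 was higher and 2 lower under DZ, 2 were lower under adenine, and 1 was lower under SAM, with medians of -0.54, -0.23, and -0.024. Over all genes 45.9%, 61.6%, and 69.3% were called, and 3 genes allow no reading of a share. Pabpc1, the cytoplasmic poly(A)-binding protein, fell under all 3 (-0.59, -0.83, and -0.87). Matr3 fell under DZ (-0.54) and adenine (-0.23) and had -0.024 under SAM, which did not pass (limma adjusted p = 0.675). Elavl1, which encodes the stabilizing protein HuR, rose under DZ (0.18) and had 0.057 and 0.04 under adenine and SAM, neither of which passed (limma adjusted p = 0.177 and 0.329).

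Of 8 RNAs known to be bound by IGF2BP proteins 6 were listed, and 4 passed under DZ (3 higher, 1 lower), 6 under adenine (5 higher, 1 lower), and 4 under SAM (3 higher, 1 lower), with medians of 0.18, 0.47, and 0.23. That made 66.7%, 100%, and 66.7% of the 6, where 45.9%, 61.6%, and 69.3% of all genes were called, so that the share under SAM was near that of all genes. The imprinted noncoding RNA H19 rose under all 3, by 0.86, 2.73, and 2.45 on the log2 scale. The growth regulator Myc rose under DZ (0.30) and fell under adenine (-0.31) and SAM (-0.69). The surface receptor Cd44 had 0.034 under DZ, which did not pass (limma adjusted p = 0.496), and rose by 0.79 under adenine and 0.90 under SAM.

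Of 10 m6A writers and erasers 4 were higher under DZ, 2 higher and 2 lower under adenine, and 3 higher and 5 lower under SAM, with medians of 0.12, 0.065, and -0.068. The called shares of 40%, 40%, and 80% stand beside 45.9%, 61.6%, and 69.3% of all genes. Mettl3, the catalytic writer, was higher under DZ (0.46) and lower under SAM (-0.16), with -0.061 under adenine that did not pass (limma adjusted p = 0.251). The writer adaptor Rbm15b fell under adenine (-0.32) and SAM (-0.52), and the demethylase Alkbh5 likewise (-0.25 and -0.34). Under DZ neither passed, with 0.049 (limma adjusted p = 0.226) and -2.5e-04 (limma adjusted p = 0.997).

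Of 9 further RNA-binding proteins proposed to sense m6A without a YTH domain, Elavl1 again among them, 7 passed under DZ (3 higher, 4 lower), 6 under adenine (3 each way), and 7 under SAM (4 higher, 3 lower), with medians of -0.062, 0.021, and 0.073. As shares of the 9 these were 77.8%, 66.7%, and 77.8%, beside 45.9%, 61.6%, and 69.3% of all genes, the one under adenine close to that of all genes. Rbmx, a nuclear protein of the hnRNP G type, fell under all 3 (-0.94, -0.52, and -0.99), and so did Fxr1 (-0.42, -0.60, and -0.42). Its relative Fmr1, which encodes the fragile X protein, rose under all 3 (0.33, 0.52, and 0.31). Over these 9 genes the median size of the log2 fold change was 0.28 under DZ, 0.18 under adenine, and 0.18 under SAM, beside 0.081, 0.13, and 0.18 for the 8 readers, and no difference between the lists was tested.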

How the data were processed

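Polyadenylated RNA of 12 libraries (4 groups of 3 dishes) was sequenced by the authors, trimmed with Trimmomatic, aligned with HISAT2 to GRCm39 guided by GENCODE vM27, quantified with StringTie, and processed with edgeR, with a floor of 1 CPM in each sample. The table the authors deposited holds log2 CPM on normalized library sizes for 12591 genes, and its values were tested as deposited. Whole reads, of which 100% came within 0.1 of a whole number at a prior count of 2, gave depths and ratios. limma 3.58.1 in R 4.3.3 (lmFit, contrasts, eBayes with trend) was fitted over all genes and libraries, with Benjamini-Hochberg adjustment and an FDR threshold of 0.01. It was also run on simulated reads in which far fewer genes changed than were called here. That run does not test the fit in the present setting. Same-numbered libraries deviated together with Pearson r from -0.142 to 0.181, so no block was used.

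All 8 readers are named, with up to 3 genes of each further list by smallest adjusted p against CTL, and the 3 genes most like any reader called with a log2 change of 0.5 or more in size. The members and lists were chosen with earlier results of these data known. Symbols, positions, and lengths come from GENCODE vM39, in which 12575 genes were matched by identifier. Alternatives were a replicate block, no trend, robust empirical Bayes, 2 filters, median centring, quantile normalization, plain read totals, a pseudocount of 1 CPM, limma-voom on the recovered reads, an FDR of 0.05, a minimum log2 fold change of 0.5, models of 2 groups, and each library left out. The authors' processing beyond these steps is not given in the sources used here. Promoter sequences were not shown for readers without an entry in the table. Python 3.11.15 with pandas 2.3.3, scipy 1.17.1, and matplotlib 3.10.9 was used for tables, permutation tests, and plots.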

Additional observations from a re-analysis of the deposited data

How the results depend on the processing

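Requiring an absolute log2 fold change of 0.5 left 0 readers called under DZ, 1 (Ythdc2) under adenine, 0 under SAM, 0 between SAM and adenine, 1 (Ythdc2) between DZ and adenine, and 0 between DZ and SAM. It left 1536, 3386, 4425, 1215, 3441, and 4340 of all genes in the same order, against 5782, 7753, 8731, 5382, 8093, and 8684. Without a variance trend, or with only the groups compared, 1 reader instead of 2 differed between SAM and adenine. Under SAM these settings left 5 and 4 readers instead of 6, the first without Igf2bp1 and the second without Ythdf1 and Igf2bp1. Under adenine, robust empirical Bayes and limma-voom left 3 instead of 4, without Ythdf1. With only the groups compared, Ythdf1 was lost and Ythdf3 gained under adenine. Between DZ and SAM 4 instead of 2 differed with plain read totals or at an FDR of 0.05. Leaving out each library gave 1 reader under DZ, 3 to 4 under adenine, 4 to 5 under SAM, 1 to 3 between SAM and adenine, 3 between DZ and adenine, and 2 to 3 between DZ and SAM. The replicate numbers were not found to pair the dishes, and with a replicate block the calls of Ythdf1 under adenine and Igf2bp1 under SAM were lost, leaving 3 and 5 readers instead of 4 and 6, with no other call of a reader changed.

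Signs turned only in differences that were not called. With median centring these were 0.0079 for Ythdf1 (DZ minus adenine), -0.0075 for Ythdf2 (adenine minus CTL), 0.017 for Ythdf2 and 0.021 for Ythdf3 (DZ minus SAM), and -0.048 and -1.7e-04 for Ythdc1 (adenine and SAM minus CTL). With plain read totals it was 0.041 for Igf2bp3 (SAM minus adenine). With single libraries left out, the ranges that crossed 0 were -0.0158 to 0.0162 for Ythdf1, -0.0063 to 0.089 for Ythdc1, and -0.062 to 0.014 for Igf2bp3 (SAM minus adenine), -0.018 to 0.013 for Ythdf2 and -0.036 to 0.027 for Ythdf3 (DZ minus SAM), and -0.025 to 0.031 and -0.0025 to 0.093 for Ythdc1 (adenine and SAM minus CTL). Of 912 values over members, comparisons, and alternatives, 816 kept their direction and side of the threshold, 54 lost the call, 22 gained one, and 20 changed sign. The cause was not tested. The fewest reads on a reader in a library were 827, for Ythdc2, and counting error was not compared with the spread between dishes for single readers.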
